A study of Mus musculus with 10 samples.

Results

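Chemokine receptors are membrane proteins that span the membrane several times and steer leukocytes along gradients of small secreted chemokines, mostly through inhibitory G proteins. In macrophages and their monocyte precursors, Ccr2 is known for release from the bone marrow and entry into inflamed tissue, Ccr7 for the migration of activated dendritic cells to lymph nodes, and Cxcr4 for retention where Cxcl12 is made. Ccrl2, an atypical member that binds the attractant chemerin, is known to present ligand rather than to signal through G proteins.

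The 9 receptors described here were Ccr1, Ccr2, Ccr3, Ccr7, Ccr9, Ccrl2, Cx3cr1, Cxcr2 and Cxcr4, chosen by name from the 29700 gene rows of the deposited count table that are not circular RNAs. All 9 had a row, matched by symbol and NCBI gene identifier. RNA was sequenced from thioglycollate-elicited peritoneal macrophages of 8-week-old C57BL/6 mice, in 5 control and 5 ox-LDL libraries. By the labels, control cells were untreated, whereas ox-LDL cells were primed with LPS (100 ng/ml) and then received oxidized low-density lipoprotein (100 µg/ml) for 16 h. LPS is a bacterial product that activates Toll-like receptor 4, and ox-LDL is the modified lipoprotein that macrophages take up in the arterial wall. Another label on every sample mentions ox-LDL stimulation, and in the study's text both groups may have been primed. With the group labels followed, effects of LPS and of ox-LDL cannot be told apart. Cells collected from an inflamed peritoneal cavity can include other leukocytes, and the labels do not say whether libraries came from separate mice, so p-values measure the spread between these libraries.

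The total count was between 20094647 and 20687289 in control and between 19257131 and 20358017 in ox-LDL libraries. Levels of single receptors are CPM, read counts scaled to the size of the library, after TMM normalization, which corrects for library composition, and levels of different receptors are compared only as deposited FPKM, which is scaled to gene length. The TMM factor was 0.593 in ox-LDL 2 and between 0.837 and 1.19 in the other libraries. With library size alone in place of TMM, the median log2 fold change of all genes tested was -0.09, against 0.10 with TMM, so changes should be read relative to that shift. The macrophage label was checked against 9 markers, and all 9 were detected in every library. They summed to 23215 to 42891 CPM in control libraries and 13368 to 28379 CPM in ox-LDL libraries on library size alone, with 2 called higher and 1 lower by edgeR. Among them Lyz2 was at 20597 CPM or more in control libraries and at 9361 CPM or more after ox-LDL. Fewer expressing cells and less RNA per cell cannot be told apart in such bulk samples.

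Of the 9 receptors, 5 had enough counts to be tested with edgeR among 12654 genes. Ccrl2 and Ccr7 were upregulated in ox-LDL-treated macrophages and Ccr2 was downregulated, at an adjusted p below 0.01, whereas Ccr1 and Cxcr4 did not pass. Among all genes tested, 9.4% were called higher and 5.35% lower in ox-LDL libraries. Cxcr2, Ccr9, Ccr3 and Cx3cr1 fell below the filter on low counts and are described from their counts.

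**Figure D1:**
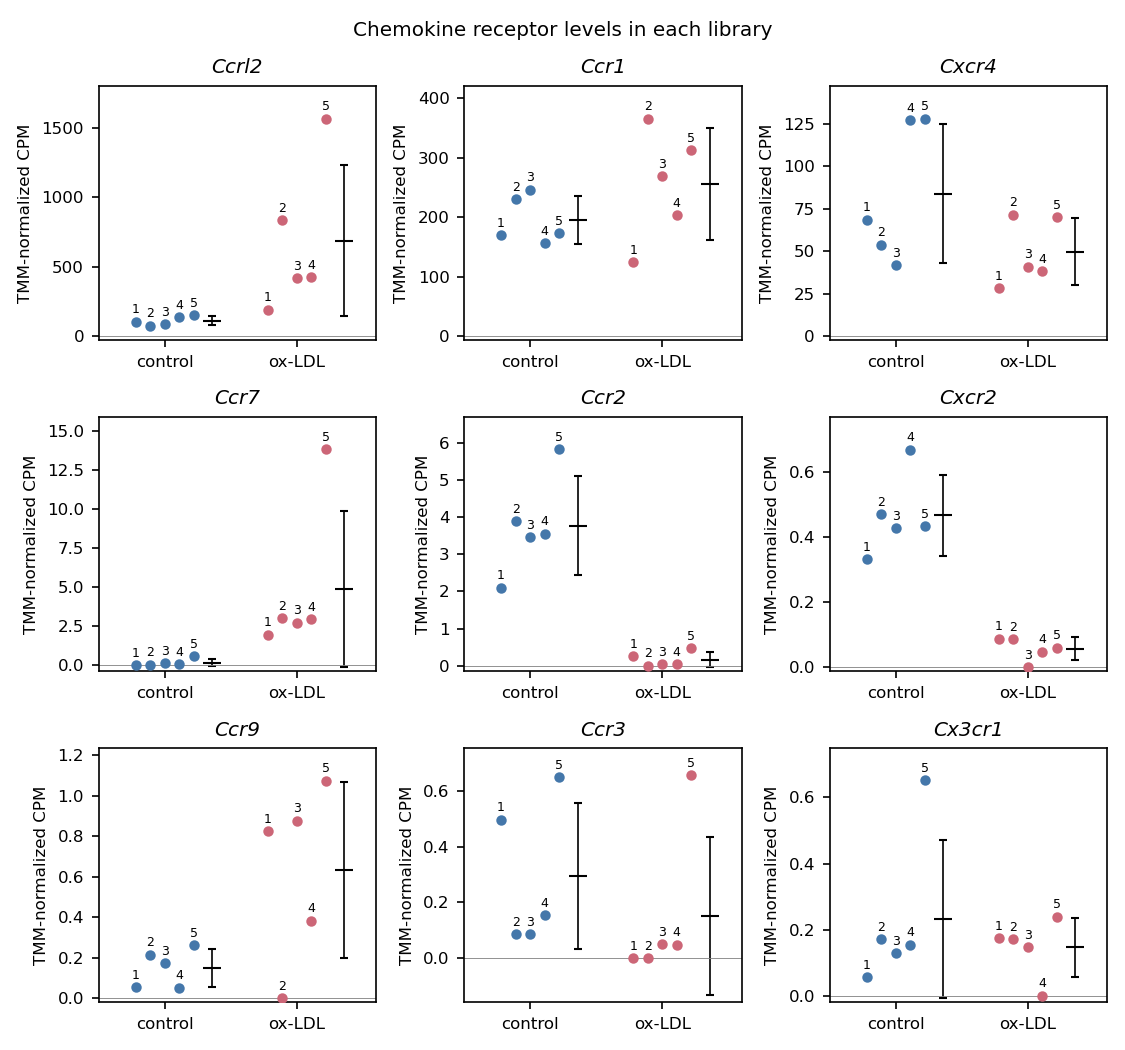
TMM-normalized CPM (vertical axis, linear, one scale per receptor) of the 9 receptors in 5 control and 5 ox-LDL libraries, with dots numbered by replicate and the bar giving mean ± SD. The groups are separate for Ccrl2, Ccr7, Ccr2 and Cxcr2 and overlap for Ccr1, Cxcr4, Ccr9, Ccr3 and Cx3cr1.

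The promoter sequences of the 3 most abundant receptors are shown because Ccrl2 was called and the other 2 were not. Each is the 250 bases before a RefSeq transcript start (GRCm38.p6 table), placed in mm9 by exact match and printed 5′ to 3′ on the strand of the gene. Capitals mark a match to the NF-kB motif, the binding motif of the transcription factor that LPS activates, searched on both strands.
Ccrl2: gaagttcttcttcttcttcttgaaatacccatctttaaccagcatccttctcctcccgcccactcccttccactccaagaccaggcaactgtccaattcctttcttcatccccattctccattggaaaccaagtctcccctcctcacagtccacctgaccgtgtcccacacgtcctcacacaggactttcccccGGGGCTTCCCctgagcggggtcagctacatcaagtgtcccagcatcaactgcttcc
Ccr1: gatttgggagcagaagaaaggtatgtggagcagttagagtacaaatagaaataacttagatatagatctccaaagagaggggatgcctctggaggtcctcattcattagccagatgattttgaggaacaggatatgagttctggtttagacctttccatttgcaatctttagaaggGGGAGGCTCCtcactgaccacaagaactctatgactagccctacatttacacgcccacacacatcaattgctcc
Cxcr4: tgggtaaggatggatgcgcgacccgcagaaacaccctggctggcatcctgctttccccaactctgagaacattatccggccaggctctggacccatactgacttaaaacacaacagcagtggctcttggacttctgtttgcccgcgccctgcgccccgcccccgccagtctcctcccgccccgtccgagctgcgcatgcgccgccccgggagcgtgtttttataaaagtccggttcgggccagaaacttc
The Ccrl2 window lies at chr9:110960023-110960272, the Ccr1 window at chr9:123883526-123883775 and the Cxcr4 window at chr1:130488877-130489126, all on the minus strand. The motif lay 56 to 47 bases before the start in this Ccrl2 window and 74 to 65 bases before it in Ccr1, and no match was present in Cxcr4. Of 32851 such windows in the table, 7.25% hold a match. In all, 8 of the 9 receptors matched the table, with 10 windows, and the remaining match was in Ccr3, 179 to 170 bases before the start. The other 2 Ccrl2 windows, which start farther downstream, held none. One of them, chr9:110959775-110960024, directly adjoins the start of Ccrl2 in the annotation used for gene positions, at 110959774. The printed Ccrl2 window thus belongs to a start upstream of that one. Ccr7 was not in the table. The AP-1 motif TGANTCA, present in 6.75% of all windows, was found in Ccr3 alone among the 10. A match is a description of letters and not of binding.

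Ccrl2 (NCBI gene 54199, chromosome 9, 110957339 to 110959774, minus strand in mm9) was the receptor with the highest level per length after treatment. Its TMM-normalized level was 104.8, 74.2, 84.9, 138 and 149 CPM in control 1 to 5 and 189, 833, 416, 423 and 1564 CPM in ox-LDL 1 to 5. All 5 ox-LDL libraries exceeded the 5 controls, although ox-LDL 1 lay close to the highest control and ox-LDL 5 well above the rest. The mean was 110.1 ± 32.5 CPM (SD, n = 5) in control libraries and 685 ± 543 CPM (SD, n = 5) after ox-LDL. The log2 fold change was 2.64 (SE 0.51, 95% interval 1.53 to 3.74, edgeR adjusted p = 0.00255), and it was called in all 23 alternative settings in which it was tested. An exact permutation test of the TMM-normalized CPM, two-sided, gave p = 0.00794, the smallest that 5 against 5 libraries allow. Over all genes tested, 20.6% likewise had no overlap between the groups.

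Ccr7 (NCBI gene 12775, chromosome 11, 99005510 to 99016391, minus strand), the receptor of Ccl19 and Ccl21a, was close to undetected in control cells. Its counts were 0, 1, 3, 1 and 13 in control 1 to 5 and 45, 35, 56, 62 and 231 in ox-LDL 1 to 5. In TMM-normalized CPM the control libraries were at 0, 0.0428, 0.128, 0.0515 and 0.565, and the ox-LDL libraries at 1.96, 3.00, 2.73, 2.97 and 13.8. The groups did not overlap, and replicate 5 was the highest library in both. The log2 fold change was 4.85 (SE 0.86, 95% interval 2.97 to 6.73, edgeR adjusted p = 0.00160), and the exact permutation test gave p = 0.00794. The size depended on those libraries, with a log2 fold change of 6.23 without control 5 and 3.97 without ox-LDL 5, and Ccr7 was called in all 21 alternative settings in which it was tested.

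Ccr7 is also a gene of activated dendritic cells, so 7 dendritic cell markers were read on library-size CPM. Their summed level was 4.06 to 6.13 CPM in control libraries and 7.02 to 88.7 CPM after ox-LDL, highest in ox-LDL 5. Of the 7 markers, 4 were tested with edgeR, and Ccl22 and Clec9a were called higher and 0 lower. Ccl22 was at 1.05 to 2.07 CPM in control libraries and 3.75 to 76.6 CPM after ox-LDL, and Clec9a at 0.243 to 0.554 and 0.859 to 2.11 CPM. Fscn1 was at 0.740 to 3.75 CPM in control libraries and 0.608 to 12.7 CPM after ox-LDL, and Zbtb46 at 0.493 to 0.610 and 0.355 to 2.42 CPM. Among the 3 not tested, Cd209a was at 0.150 to 1.93 CPM in control libraries and at most 0.0507 CPM after ox-LDL, and Flt3 and Itgae were at or below 0.250 CPM in every library. The part of dendritic cells in the Ccr7 difference was not tested.

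Ccr2 (NCBI gene 12772, chromosome 9, 124016689 to 124028296, plus strand), the receptor of Ccl2, was the one receptor called lower. Its counts were 38, 91, 81, 69 and 134 in control 1 to 5 and 6, 0, 1, 1 and 8 in ox-LDL 1 to 5. These corresponded to 2.10, 3.89, 3.47, 3.55 and 5.82 CPM against 0.261, 0, 0.0488, 0.0478 and 0.478 CPM after TMM. No library of one group reached the range of the other. The mean fell from 3.77 ± 1.34 to 0.167 ± 0.201 CPM (SD, n = 5 each), with a log2 fold change of -4.41 (SE 0.63, 95% interval -5.78 to -3.04, edgeR adjusted p = 0.000399) and an exact permutation p of 0.00794. Without ox-LDL 5 the log2 fold change was -5.15, and the call held in all 21 alternative settings in which Ccr2 was tested.

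Ccr2 marks classical monocytes, and the 4 monocyte markers summed to 19.8 to 272 library-size CPM in control libraries and to 14.3 to 293 CPM after ox-LDL. Control 5 and ox-LDL 5 were the highest of their groups, at 272 and 293 CPM, and most of this was Chil3, at 242 and 245 CPM at its highest. Of the 3 markers tested with edgeR, F13a1 was called lower, like Ccr2, and 0 were called higher. F13a1 was at 7.19 to 20.4 CPM in control libraries and 0.157 to 4.49 CPM after ox-LDL, without overlap, whereas Chil3, Ly6c2 and Plac8 overlapped between the groups. The part of monocytes in the Ccr2 difference was not tested.

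**Figure D2:**
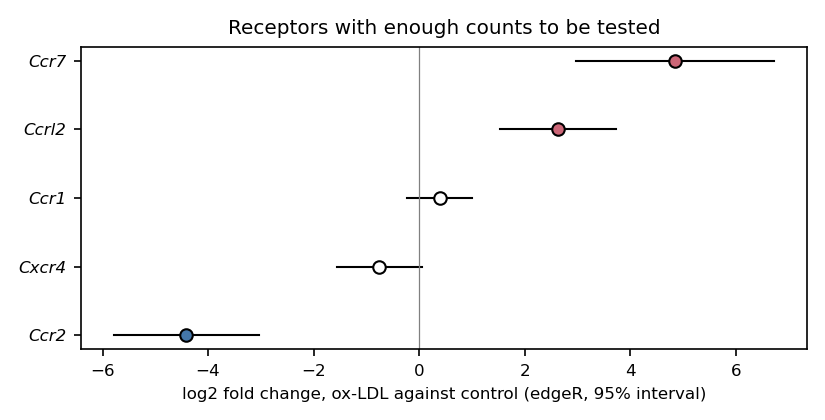
Log2 fold change of ox-LDL against control libraries (horizontal axis, edgeR) for the 5 receptors tested, with 95% intervals, filled where the adjusted p was below 0.01. The intervals of Ccr7 and Ccrl2 lie above 0, that of Ccr2 below 0, and those of Ccr1 and Cxcr4 include 0.

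Ccr1 (NCBI gene 12768, chromosome 9, 123876959 to 123883525, minus strand), a receptor of Ccl3 and Ccl5, had the highest mean level per length in control cells and no call. It stood at 169, 229.6, 246, 156 and 172 CPM in control 1 to 5 and at 124, 365, 269, 204 and 312 CPM in ox-LDL 1 to 5. The groups overlapped, with ox-LDL 1 below every control and ox-LDL 2, 3 and 5 above. The log2 fold change was 0.39 (SE 0.28, 95% interval -0.23 to 1.01, edgeR adjusted p = 0.341), and the exact permutation test gave p = 0.238. The interval leaves room for a change of up to 1.01 on the log2 scale. On library-size CPM or on FPKM the exact permutation p was 0.690, and with library size alone the log2 fold change was 0.10. With single libraries left out, the exact permutation p ran from 0.0476 without ox-LDL 1 to 0.452 without ox-LDL 2. Ccr1 was called by none of the 23 alternative settings.

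Cxcr4 (NCBI gene 12767, chromosome 1, 130484776 to 130488870, minus strand), the receptor of Cxcl12, was lower on average in ox-LDL libraries without passing the test. Its level was 68.7, 53.9, 41.6, 127 and 128 CPM in control 1 to 5 and 28.2, 71.5, 41.0, 38.4 and 70.1 CPM in ox-LDL 1 to 5. Control 4 and 5 were the highest libraries, and the rest overlapped. The log2 fold change was -0.75 (SE 0.37, 95% interval -1.55 to 0.05, edgeR adjusted p = 0.151), with an exact permutation p of 0.167 on TMM-normalized CPM. On library-size CPM or on FPKM the exact permutation p was 0.0159. The level of ox-LDL 2, the library with the lowest TMM factor, was 71.5 CPM with TMM and 42.3 CPM without. None of the 23 alternative settings called Cxcr4 at an adjusted p below 0.01, with values between 0.0411 and 0.322.

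The order of the receptors per length differed between the groups. In control libraries mean FPKM was 78.5 for Ccr1, 63.4 for Ccrl2 and 52.9 for Cxcr4, and the ranges of these neighbours overlapped, so that their ranges do not set them apart. Ccr2 followed at 1.18 FPKM, its range below that of Cxcr4 and above that of Cxcr2 at 0.218 FPKM, and the other receptors were between 0.044 and 0.12 FPKM with overlapping ranges. In ox-LDL libraries Ccrl2 was first at 332 FPKM, followed by Ccr1 at 84.3, Cxcr4 at 26.2 and Ccr7 at 2.37 FPKM, and none of these 4 overlapped with the next. The remaining 5, Ccr9, Ccr3, Ccr2, Cx3cr1 and Cxcr2, had means from 0.158 down to 0.022 FPKM and overlapping ranges.

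As a share of the summed FPKM of the 9 receptors, Ccrl2 took 25.1% to 36.2% in control libraries (median 35.2%) and 62.5% to 84.3% in ox-LDL libraries (median 70.5%). The share of Ccr1 was 27.7% to 55.9% in control and 11.0% to 27.8% in ox-LDL, and that of Cxcr4 15.2% to 36.1% and 3.96% to 9.79%. These shares move together by construction, so a rise of Ccrl2 lowers the others. The ratio of Ccrl2 to Cxcr4 within a library, which no scaling of the libraries can alter, was 0.983 to 1.85 in control and 6.39 to 21.3 in ox-LDL libraries. The ratio of Ccrl2 to Ccr1 was 0.468 to 1.28 in control and 2.33 to 7.66 in ox-LDL libraries, and neither ratio overlapped between the groups.

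**Figure D3:**
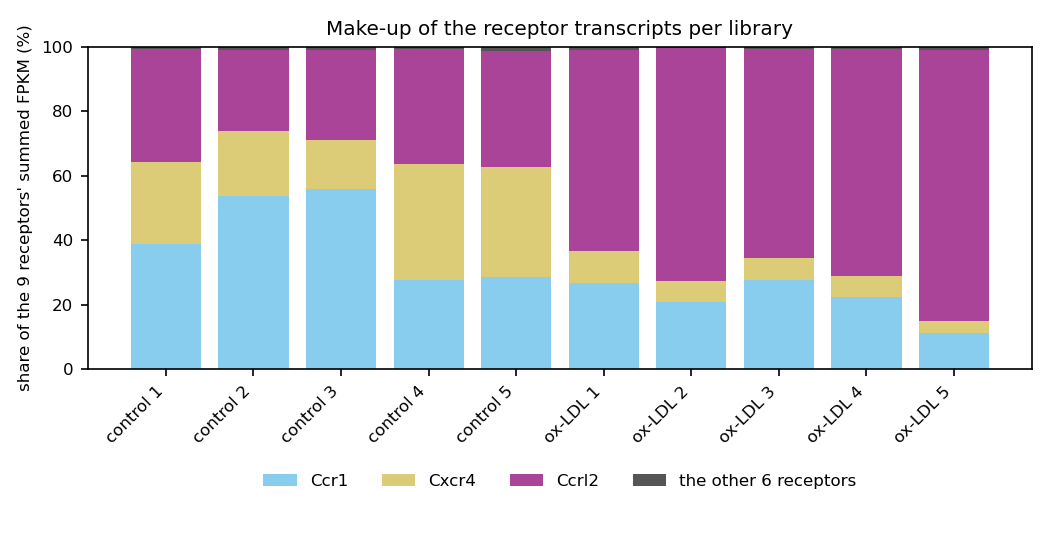
Share of the summed FPKM of the 9 receptors (vertical axis, %) taken by Ccr1, Cxcr4, Ccrl2 and the other 6 in each of the 10 libraries. Ccrl2 holds at most 36.2% in any control library and at least 62.5% in any ox-LDL library.

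Of the 4 receptors below the filter, Cxcr2 (NCBI gene 12765, chromosome 1, 74200563 to 74207812, plus strand), the receptor of Cxcl1 and Cxcl2 on neutrophils, showed separate groups. Its counts were 5.99, 11, 10, 13 and 10 in control 1 to 5 and 2, 1, 0, 1 and 1 in ox-LDL 1 to 5. Every control library was above every ox-LDL library (exact permutation p = 0.00794), and summed counts per normalized library gave a ratio of ox-LDL to control of 0.116 (95% exact interval 0.036 to 0.288, counting error only). With no filter on low counts edgeR gave a log2 fold change of -3.03 (SE 0.72, adjusted p = 0.00398). Neutrophil markers summed to 18.8 to 44.5 library-size CPM in control libraries and to 24.3 to 92.4 CPM after ox-LDL, and the markers did not move one way. Of the 2 tested with edgeR, S100a8 was called higher, at 6.35 to 12.98 CPM in control libraries and 12.9 to 90.2 CPM after ox-LDL. Mmp8 was at 5.33 to 37.1 and 1.37 to 10.7 CPM and was not called (edgeR adjusted p = 0.067). Ltf, not tested, was lower after ox-LDL without overlap, at 0.394 to 1.57 and 0 to 0.106 CPM, Camp was higher without overlap, at 0 to 0.0506 and 0.159 to 0.799 CPM, and S100a9 and Mpo were at or below 0.400 CPM in every library. Their part in the Cxcr2 counts was not tested.

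Ccr9 (NCBI gene 12769, chromosome 9, 123587557 to 123691089, plus strand), the receptor of Ccl25 known from gut-homing lymphocytes, had counts of 1, 5, 4, 1 and 6 in control 1 to 5 and 19, 0, 18, 8 and 18 in ox-LDL 1 to 5. ox-LDL 2 had none while the other 4 ox-LDL libraries exceeded every control. The exact permutation test gave p = 0.0714, and without ox-LDL 2 it gave p = 0.00794. Exons of the gene overlap Slc6a20a and Gm17021 on the opposite strand and Gm17200 on the same strand, and whether counting used the strand is not given in the sources used here, so the reads of Ccr9 are uncertain.

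Ccr3 (NCBI gene 12771, chromosome 9, 123936703 to 123946421, plus strand), the eotaxin receptor of eosinophils, had counts of 9, 2, 2, 3 and 15 in control 1 to 5 and 0, 0, 1, 1 and 11 in ox-LDL 1 to 5. Replicate 5 was the highest of each group and the groups overlapped (exact permutation p = 0.341). Without ox-LDL 5, left out after its value was seen, the exact permutation p was 0.0635. Eosinophil markers summed to 3.70 to 8.89 library-size CPM in control libraries and to 0.887 to 2.18 CPM after ox-LDL, without overlap and with 1 called lower by edgeR of the 2 tested. The sum was largely Siglecf and Ear2, with the granule gene Prg2 at 0 in every control library and at most 0.0999 CPM in ox-LDL libraries. Their part in the Ccr3 counts was not tested.

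Cx3cr1 (NCBI gene 13051, chromosome 9, 119957811 to 119977400, minus strand), the fractalkine receptor of patrolling monocytes and many tissue macrophages, had counts of 1, 4, 3, 3 and 15 in control 1 to 5 and 4, 2, 3, 0 and 4 in ox-LDL 1 to 5. Apart from control 5 no library exceeded 4 counts, and a difference was not detectable at this depth (exact permutation p = 0.651). Without control 5 the difference in means changed sign (exact p = 0.738). Control 5 also had the highest sum among controls for monocyte, dendritic cell, plasmacytoid dendritic cell, mast cell, NK cell, B cell and T cell markers.

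On chromosome 9, Ccr9, Ccr1, Ccr3 and Ccr2 lie next to each other in that order among the 9, with gaps of 185869, 53177 and 70267 bases between their gene ends. Of these neighbours, Ccr2 was called lower and Ccr1 was not called, although both lie in one stretch of the chromosome.

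**Figure D4:**
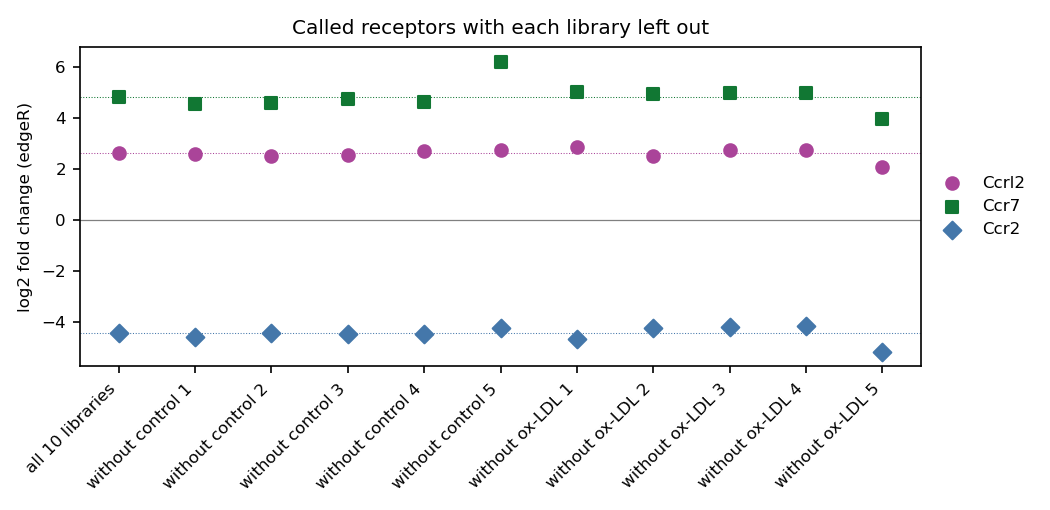
Log2 fold change of ox-LDL against control (vertical axis, edgeR) of Ccrl2, Ccr7 and Ccr2 with all 10 libraries and with each left out in turn, dotted lines giving the value with all. Ccr7 ranges from 3.97 without ox-LDL 5 to 6.23 without control 5, and no sign changes.

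The ligands of these receptors were read from a list of 24 genes, of which 23 had a row and 18 were tested. Of the 18, 10 (55.6%) were called higher and 0 lower by edgeR, against 9.4% and 5.35% of all genes tested. At an unadjusted p below 0.05, 15 were higher and 0 lower, a cutoff at which the share of all genes was not taken. DESeq2, limma-voom and limma on FPKM also called 0 lower. The median log2 fold change of the 18 was 2.42, against 0.10 over all 12654 genes tested. Without control 5 and ox-LDL 5 together, 5 ligands were called higher, when 809 of 12824 genes were called higher.

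The ligands of Cxcr2 had large changes. Mean Cxcl1 rose from 1.19 ± 0.601 to 32.8 ± 24.0 CPM (log2 fold change 4.78, SE 0.63, edgeR adjusted p = 0.000252), while Cxcl2 rose by 5.33 and Cxcl3 by 7.77 on the log2 scale. Cxcl5 had a log2 fold change of 3.74 and missed the threshold (edgeR adjusted p = 0.0117). In the same libraries Cxcr2 itself had at most 2 counts after treatment.

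Among ligands of Ccr1, Ccl5 rose from 5.86 ± 10.1 to 2196 ± 951 CPM (SD, n = 5 each; log2 fold change 8.55, SE 1.18, edgeR adjusted p = 0.000332), the largest log2 fold change of the ligands tested. Ccl7, which binds Ccr1, Ccr2 and Ccr3, rose by 3.44 and Ccl2, the main ligand of Ccr2, by 3.18 on the log2 scale, the latter from 23.5 ± 9.89 to 214 ± 185 CPM. Ccl24, an eotaxin that binds Ccr3, rose by 2.55, Pf4, platelet factor 4, by 2.45, Ccl4 by 1.78 and Mif, a ligand of Cxcr4 and Cxcr2, by 1.66 on the log2 scale. Ccl3 had a log2 fold change of 1.61 and was not called (edgeR adjusted p = 0.0207).

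For Ccr7 no ligand could be followed, since Ccl21a had at most 1 count in any library and Ccl19 had no row. Cxcl12 averaged 1.79 ± 0.918 CPM in control libraries and 2.14 ± 2.60 CPM after ox-LDL (edgeR adjusted p = 0.798). Rarres2, which encodes chemerin, averaged 0.299 ± 0.245 and 1.61 ± 1.91 CPM and did not pass (edgeR adjusted p = 0.0572).

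**Figure D5:**
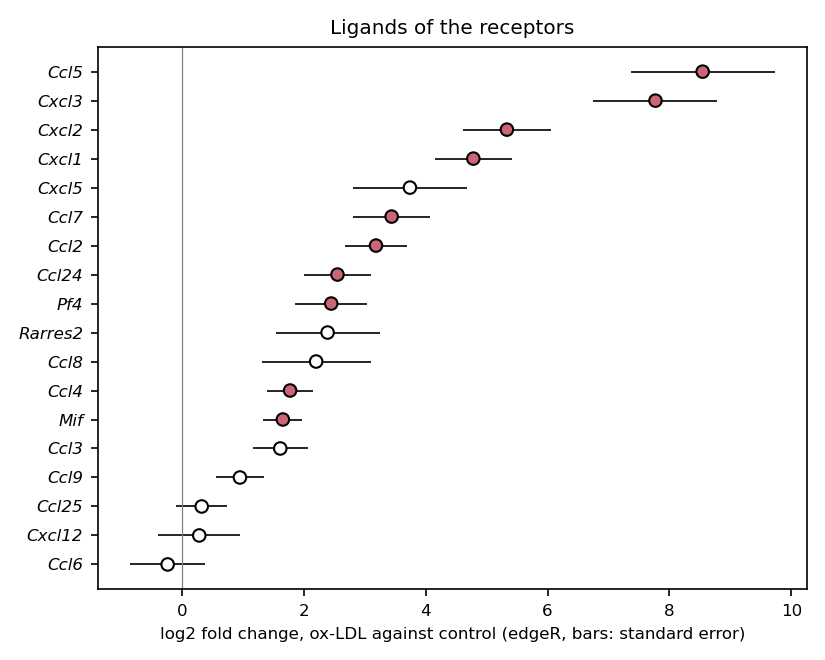
Log2 fold change of ox-LDL against control libraries (horizontal axis, edgeR, bars giving the standard error) of the 18 ligands tested, filled where called higher at an adjusted p below 0.01. Of these, 17 lie above 0 and Ccl6, at -0.23, below it.

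Of 24 genes that act downstream of chemokine receptors, all tested, 2 were called higher and 1 lower (8.33% and 4.17%), close to the 9.4% and 5.35% of all genes tested, and the median log2 fold change was -0.10. The counts are thus no result about the list, and the 3 genes are given for their own values. Dock2, an activator of Rac in migrating leukocytes, fell from 166 ± 29.1 to 41.7 ± 18.0 CPM (log2 fold change -1.99, SE 0.29, edgeR adjusted p = 0.000449). Grk3, a kinase that phosphorylates activated receptors, rose from 4.34 ± 0.360 to 11.7 ± 3.02 CPM (log2 fold change 1.43, SE 0.21, edgeR adjusted p = 0.000435), and Prex1, another Rac activator, rose by 1.41 (SE 0.34, edgeR adjusted p = 0.00897). The higher calls depended on the settings, with 0 on library size alone and 5 without ox-LDL 2, against 1 without any one of control 1 to 4 or of ox-LDL 1, 3, 4 and 5. The lower calls were 2 without control 1, ox-LDL 1 or ox-LDL 2. Calls over all genes moved as well. Higher calls were 1189 of 12654 with TMM and all libraries, 704 of 12654 on library size alone and 1755 of 12973 without ox-LDL 2. Lower calls were 677 of 12654 with TMM and all libraries. Without control 1, ox-LDL 1 and ox-LDL 2 they were 455, 815 and 1502.

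Of 16 other chemokine receptors 3 were tested, and 0 were called higher or lower by edgeR, against 9.4% and 5.35% of all genes tested. At an unadjusted p below 0.05 there were 0, and DESeq2 and limma-voom called 0. The log2 fold changes of the 3 were between 0.71 and 1.33. Cmklr1, the chemerin receptor that signals, averaged 19.4 ± 5.71 CPM in control libraries and 35.8 ± 34.8 CPM after ox-LDL (log2 fold change 0.89, SE 0.49, edgeR adjusted p = 0.204).

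Genes with a pattern like that of each tested receptor were ranked by Pearson correlation of log2 CPM over the 10 libraries. The libraries share the 2 treatment groups, so that genes with a group difference rank high, and the correlation within groups is given beside each. Ccrl2 was most like Vapa (r = 0.985, 0.957 within groups), Rab20 (0.982, 0.951) and Nufip1 (0.982, 0.941). Ccr7 was most like Irak2, a kinase of Toll-like receptor signalling (r = 0.993, 0.967 within groups), Zmynd15 (0.990, 0.948) and Tmbim6 (0.988, 0.947). Ccr2 was most like Prkch (r = 0.989, 0.912 within groups), Gm15448 (0.987, 0.884) and B3gnt8 (0.986, 0.871). Ccr1 was most like Gmfb (r = 0.885, 0.871 within groups), Tbx10 (0.863, 0.891) and Atp6v1h (0.849, 0.864), and Cxcr4 was most like Dazap2 (r = 0.939, 0.953 within groups), B3gnt7 (0.935, 0.914) and Atp6ap1 (0.933, 0.924). The lowest of these 15 correlations were those of Ccr1.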

How the data were processed

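RNA of 5 control and 5 ox-LDL libraries was sequenced on the BGISEQ-500 platform. The authors used FastQC, aligned reads to mm9 with HISAT2 (2.0.5), sorted them with SAMtools (1.4) and assembled transcripts with StringTie (1.3.3.13), per the submitters' processing notes and the methods. They deposited estimated counts per gene, of which 13.6% were not whole numbers, and a second value whose unit is not named. Count divided by that value and by the library total gave a near constant length (median coefficient of variation 0.933% over 4870 genes), so the deposited values were treated as FPKM. The counting tool, its treatment of near-identical genes and of strand are not given in the sources used here.

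The 9788 circular RNA rows (1.44% to 2.24% of counts) were left out, and counts were rounded. Genes were filtered with filterByExpr by group, normalized by TMM and tested with the quasi-likelihood test of edgeR (4.0.16, robust, R 4.3.3). A gene was called at a Benjamini-Hochberg adjusted p below 0.01 over 12654 genes. Standard errors were the absolute log2 fold change over the square root of F, and correlations used log2 CPM with a prior count of 2. Single receptors were also compared by two-sided exact permutation of mean TMM-normalized CPM, enumerating every arrangement of the libraries, with no adjustment over the 9. Ratios of summed counts carry 95% exact binomial intervals, which cover counting error only. Alternatives included DESeq2 (1.42.0), limma-voom and limma (3.58.1) on log2(FPKM + 1) for genes of at least 1 FPKM in 5 or more libraries. The procedures were tested on simulated data. Of 200 changed genes, edgeR recovered 106 with 1 false call, DESeq2 143 with 15 and limma-voom 103 with 1. A gene that was not called may thus still differ.

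Positions came from the GENCODE annotation of NCBIM37 (mm9), and promoters from a RefSeq table of GRCm38.p6. The members and gene lists were chosen with earlier results of these data known. Named were the 9 receptors, list genes called, some listed ligands and Cmklr1 that missed the threshold (chosen after their values were seen), and for each tested receptor the 3 genes of highest correlation.

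Further marker lists were read on library-size CPM. Mast cell markers summed to 0.493 to 8.06 CPM in control and 0.522 to 2.95 CPM in ox-LDL libraries, B cell markers to 1.13 to 2.85 and 0.659 to 3.52 CPM, T cell markers to 1.05 to 1.75 and 0.991 to 1.65 CPM, and NK cell markers to 0.254 to 0.851 and 0 to 0.649 CPM. Plasmacytoid dendritic cell markers summed to 0.0986 to 1.10 and 0.319 to 1.35 CPM, resident peritoneal macrophage markers to 8.05 to 12.2 and 24.2 to 173 CPM, mainly Serpinb2 in ox-LDL libraries, and mesothelial and stromal markers to 12.7 to 42.8 and 59.3 to 127.5 CPM.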

Additional observations from a re-analysis of the deposited data

Results flagged for a closer look

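In 4 of the 18 groups of 5 libraries examined for the 9 receptors, 1 library stood far from the others, by Dixon's 95% criterion (0.71 of the group's range). Chance flags about 1 group in 20 when values are independent and normally distributed. That rate does not carry over to groups with counts near 0, and the 18 groups draw on the same 10 libraries. Ccr7 was at 13.8 CPM in ox-LDL 5 against 3.00 CPM in the next library, a gap of 0.912 of the range. Ccr7 was also high in control 5, at 0.565 CPM against 0.128 CPM, with a gap of 0.773 of the range. Ccr3 was at 0.657 CPM in ox-LDL 5 against 0.0488 CPM in the next library, a gap of 0.926 of the range. Cx3cr1 was at 0.652 CPM in control 5 against 0.171 CPM in the next library, a gap of 0.806 of the range. All 4 concern replicate 5, the replicate with the highest summed monocyte markers in both groups (272 and 293 CPM), mostly Chil3. Summed dendritic cell, plasmacytoid dendritic cell, mast cell and NK cell markers were also highest in replicate 5 of both groups. The other marker lists had another library highest in at least 1 group. The part of other cells in these values was not tested.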

How the results depend on the processing

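The calls of Ccrl2, Ccr7 and Ccr2 held in every alternative in which they could be tested. The number of the 9 receptors called higher was 1, and lower 0, with limma on log2(FPKM + 1) and with at least 10 counts in every library, since Ccr7 and Ccr2 do not pass those filters, and with no filter 2 were called lower. With no filter, 1 other receptor was called higher and 1 lower, when 1212 of 29267 genes were called higher and 787 lower. Ligands called higher were 5 without control 5 and ox-LDL 5. Signalling genes called higher were 0 with library size alone, limma on FPKM or an absolute log2 fold change above 2, 1 with upper-quartile factors or without control 5 and ox-LDL 5, and 5 at an adjusted p below 0.05. They ranged from 1 to 5 with each library left out. Over all 12654 genes, higher calls were 704 with library size alone and 956 with upper-quartile factors, against 1189 with TMM. Limma on FPKM called 555 of 10470 genes higher. With each library left out, higher calls over all genes ranged from 826 without control 4 to 1755 without ox-LDL 2. Signalling genes called lower were 5 with DESeq2, 2 with limma on FPKM, 2 with no filter, 5 with the gene length trend removed, 4 at an adjusted p below 0.05 and 0 at a log2 fold change above 2, and 1 to 2 with each library left out. Over all genes, lower calls were 677 of 12654 with TMM, 1244 of 12444 with DESeq2 and 750 of 10470 with limma on FPKM. They were 1471 of 12654 with the gene length trend removed. At the other cutoffs the share of all genes was not taken. By median FPKM, 6 receptors kept their place in control and 7 in ox-LDL. Leaving out single libraries, chosen as a setting after the data were seen, kept 6 to 9 places in each group. For the exact tests, leaving out single libraries, also chosen after the data were seen, gave p = 0.0476 to 0.452 for Ccr1, 0.0635 to 0.627 for Ccr3, 0.00794 to 0.111 for Ccr9 and 0.421 to 0.968 for Cx3cr1, whose direction turned at 0.738. Cxcr4 had an exact permutation p of 0.0159 on library-size CPM and on FPKM. The cause of these moves was not tested except where fewer genes were tested.

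The groups share replicate numbers, but the numbers do not pair all libraries. The correlation of their deviations was 0.443 for replicate 3 and 0.411 for replicate 5, but 0.024, -0.272 and -0.285 for replicates 1, 2 and 4. Control 5 and ox-LDL 5 correlated best with each other, whereas control 3 correlated best with ox-LDL 4, at 0.482. With the replicate block, 2 receptors were called higher and 1 lower, 6 ligands higher, and 1 signalling gene higher. Depth limits Ccr3, Cx3cr1, Cxcr2 and Ccr9, which had at most 19 counts in any library.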

Other observations

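Among receptors and ligands below the filter on low counts, 4 genes passed an adjusted p below 0.01 when edgeR was run with no filter. In that fit 1212 of 29267 genes were called higher and 787 lower. The count is given for the genes' own values and not as a result about the lists. Beside Cxcr2 these were Ackr3, Cxcr3 and Ccl12, chosen here after their values were seen. Ackr3, an atypical receptor that binds Cxcl12, averaged 0.0299 ± 0.0277 CPM in control libraries and 0.361 ± 0.160 CPM after ox-LDL (log2 fold change 3.37, SE 0.82, edgeR adjusted p = 0.00503), with at most 14 counts in a library. Cxcr3, known from activated T and NK cells, averaged 0.447 ± 0.248 and 0.0508 ± 0.0527 CPM (log2 fold change -3.21, SE 0.81, edgeR adjusted p = 0.0071), with at most 16 counts in a library. Ccl12, a ligand of Ccr2, averaged 0.0653 ± 0.0724 CPM in control libraries and 2.58 ± 1.99 CPM after ox-LDL (log2 fold change 5.11, SE 0.91, edgeR adjusted p = 0.00141), with at most 3 counts in any control library and up to 82 in an ox-LDL library.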
